A study of Mus musculus with 15 samples.

Results

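The genes described here are 10 transcription factor genes of the AP-1 and EGR families, out of 24134 genes counted in each table: the FOS family (*Fos*, *Fosb*, *Fosl1*, *Fosl2*), the JUN family (*Jun*, *Junb*, *Jund*) and *Egr1*, *Egr2* and *Egr3*. They were chosen from earlier results of these same libraries, in which the falls of *Fos*, *Fosb*, *Egr1* and *Egr2* after tankyrase inhibition were already known, so their changes are a description: a gene is called where its adjusted p over all genes tested was under 0.05, and no such call of these 10 is taken as evidence. Each was taken by its symbol, and all 10 passed the filter on low counts in both tables. Primary articular chondrocytes at passage 0, taken from the knee-joint ends of femur and tibia of ICR mouse pups 4 to 5 days old, were grown with 10% serum and sequenced as poly(A) RNA. The drug set had 9 libraries, 3 each after 108 h with DMSO, 10 μM XAV939 or 10 μM IWR-1, which are small-molecule tankyrase inhibitors. The siRNA set had 6 libraries, 3 with control siRNA (siCtrl) and 3 with siRNAs against both *Tnks* and *Tnks2* (siTnks12), delivered with METAFECTENE PRO, with no time stated in the sources used here. The study calls the 3 samples of a group biological replicates, and whether each came from its own pool of pups is not given in the sources used here. The knockdown lowers tankyrase mRNA and leaves part of it, whereas the compounds act on the enzymes.

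AP-1 is a dimer of basic leucine zipper proteins, in which a FOS protein pairs with a JUN protein or JUN proteins pair with each other. The EGR proteins are zinc-finger factors that bind GC-rich DNA, and their activity is restrained by the co-repressors NAB1 and NAB2. Many of these genes are immediate-early genes, switched on within minutes by growth factors, serum or stress through ERK and other MAP kinases and through SRF with its ELK partners, and AP-1 is known in cartilage for driving collagenase and stromelysin genes such as *Mmp13* and *Mmp3*.

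The 250 bases upstream of each annotated start site were searched on both strands for the CArG box (the SRF site), the CRE core TGACG and the full CRE TGACGTCA (CREB and ATF sites, the shorter lying within the longer), the AP-1 site TGANTCA, the AP-1/CRE-like site TGACNTCA and the EGR site GCGNGGGCG. Windows were given for 7 of the 10 genes, and *Fosl1*, *Egr1* and *Egr3* had no entry. The stretches below, from RefSeq on GRCm38.p6 (mm10), are the 120 bases upstream of a start site of *Fos*, *Jun*, *Junb* and *Egr2* (1 of its 5 start sites), chosen because they hold a match and overlap 0 exons of GENCODE M21, each printed 5′ to 3′ on the gene's own strand with matches in capitals, and they show which of these letters stand near each start.
Fos (chr12:85473770-85473889, + strand): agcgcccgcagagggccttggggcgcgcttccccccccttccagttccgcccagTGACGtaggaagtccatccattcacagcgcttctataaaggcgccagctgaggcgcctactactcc
Jun (chr4:95052223-95052342, − strand): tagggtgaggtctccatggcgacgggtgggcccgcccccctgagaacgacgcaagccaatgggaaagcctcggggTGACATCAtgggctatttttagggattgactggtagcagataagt
Junb (chr8:84978749-84978868, − strand): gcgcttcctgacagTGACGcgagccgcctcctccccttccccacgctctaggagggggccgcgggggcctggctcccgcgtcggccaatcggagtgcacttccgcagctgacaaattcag
Egr2 (chr10:67537749-67537868, + strand): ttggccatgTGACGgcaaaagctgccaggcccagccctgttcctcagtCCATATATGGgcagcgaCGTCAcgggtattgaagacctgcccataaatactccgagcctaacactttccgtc
In *Fos* the core TGACG lay 66 to 62 bases before the start, and a further copy lay 129 to 125 bases before it. In *Jun* a match to TGACNTCA lay 45 to 38 bases before the start. This start site of *Egr2* had a CArG box 72 to 63 bases upstream with a TGACG on either side of it, 1 on each strand. Another *Egr2* start site, with the stretch chr10:67537446-67537565, also overlapped 0 exons and is not printed. It had a CArG box and no TGACG within the 250 bases. *Fosb* had TGACG and GCGNGGGCG, *Fosl2* had GCGNGGGCG and *Jund* had no match within the 250 bases. Among all 32851 windows of this length, 1.47% held a CArG box, 17.8% TGACG, 1.55% TGACGTCA, 6.75% TGANTCA, 7.49% TGACNTCA and 4.7% GCGNGGGCG. Bases farther than 250 upstream were not searched, so a missing match, such as a CArG box in *Fos*, holds for this window only. The matches describe letters and were not measured as binding in these cells.

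Total counts per library ran from 26857070 to 36615194, and no pair of libraries of a group agreed within sampling noise. The knockdown was seen in its targets. *Tnks* measured 69.0, 58.4 and 70.1 CPM (counts scaled by TMM to a common library size) in siCtrl replicates 1 to 3 and 19.5, 12.7 and 24.0 CPM in siTnks12, and *Tnks2* measured 118.5, 119.6 and 115 CPM and then 58.2, 44.9 and 61.2 CPM. In the drug set *Tnks2* lay wholly below DMSO with both compounds. Its log2 fold change was −0.41 (SE 0.12, called) with XAV939 and −0.27 (SE 0.12, not called) with IWR-1. *Tnks* overlapped DMSO with both, at −0.72 (SE 0.42) and −0.19 (SE 0.42), and was not called. All 13 chondrocyte markers were detected, and their summed level was 28870 to 38880 CPM with DMSO, 41590 to 60300 with XAV939 and 98390 to 123700 with IWR-1, against 94850 to 126600 in siCtrl and 137500 to 221700 in siTnks12. Of the 13, 6 were called higher with XAV939, 12 with IWR-1 and 6 in the knockdown, and 0 lower. Beside these, 7.57%, 16.2% and 10.4% of all genes were called higher. With each compound 1 marker had a negative value. With the replicate number as a block, 1 was called lower with IWR-1. The summed level of 8 fibroblast markers was 15720 to 17760 CPM with DMSO, 8215 to 10840 with XAV939 and 7151 to 9904 with IWR-1, and 5947 to 9547 in siCtrl and 3888 to 8461 in siTnks12. Of the 8, 3 were called lower (*Col1a1*, *Col3a1*, *Pdgfra*) and 2 higher (*Postn*, *Fap*) with XAV939, 5 lower (those 3, *Dcn* and *Fap*) and 1 higher (*Postn*) with IWR-1, and 0 lower and 2 higher (*Postn*, *Fap*) in the knockdown, so the summed level does not stand for each marker. The 12 leukocyte markers summed to 12.6 to 17.8 CPM with DMSO, at most 17.8 with XAV939, 6.98 to 9.97 with IWR-1 and at most 6.31 in the siRNA set. With IWR-1 3 of the 5 tested were called lower (*Cd68*, *Csf1r*, *S100a8*), and *Cd3e* was at 0 in every library of 4 groups. The 6 endothelial markers summed to 1.72 to 3.11 CPM with DMSO, at most 0.870 with IWR-1 and at most 8.56 in any library. *Tek* and *Vwf*, the 2 tested, were both called lower with IWR-1, and *Pecam1* and *Cdh5* were below the filter on low counts. The chondrocyte sum was higher and the fibroblast sum lower with both compounds, and the leukocyte and endothelial sums lower with IWR-1, in the same libraries in which most of the AP-1 and EGR genes were lower, and their part in the results was not tested. In such bulk libraries, fewer cells of a type and less RNA per cell cannot be told apart.

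Within the drug set, the IWR-1 libraries held the lowest mean level of each of these genes. All 10 had a negative log2 fold change against DMSO, with a median of −2.12 against 0.01 over all genes, and all 10 passed an adjusted p of 0.05, beside 20.2% of all genes called lower and 16.2% called higher. In all 10 every IWR-1 library lay below every DMSO library, beside 26.4% of all genes that lay so and 24.7% that lay wholly above. XAV939 gave negative values for 9 of 10 with a median of −1.14 (0.02 over all genes). It had 7 calls, all lower, beside 9.85% of genes called lower and 7.57% called higher, and 7 genes lay wholly below DMSO and *Egr3* wholly above, beside 16.8% and 16.4% of all genes. Knockdown gave negative values for 9 of 10, with a median of −0.19 (−0.0012 over all genes). Here 2 genes, *Fosl1* and *Egr1*, were called lower, beside 7.61% of genes called lower and 10.4% called higher, and 4 lay wholly below siCtrl (*Fosb*, *Fosl1*, *Fosl2*, *Egr1*) and 0 above, beside 22.2% and 21.6%. These contrasts chose the genes, so nothing is read from the counts beyond the description. Both compounds were set against the same 3 DMSO libraries, and their values therefore share that group's error.

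**Figure D1:**
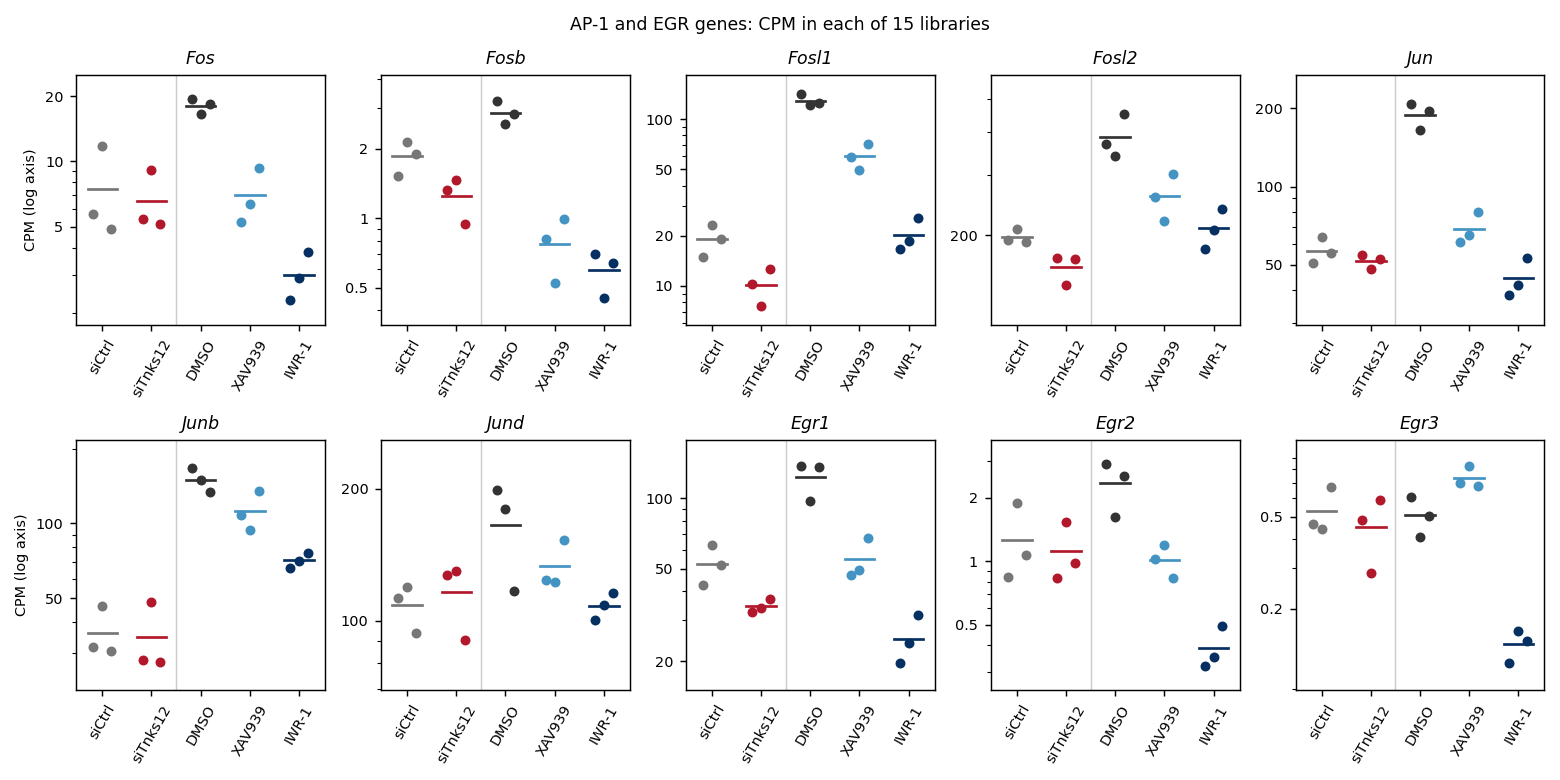
CPM (vertical axis, log scale) of each of the 10 genes in each of 15 libraries, with groups along the horizontal axis. Points are libraries in the order of replicates 1 to 3 and bars are group means, and the IWR-1 points lie below all DMSO points in all 10 panels.

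*Fos* (gene ID 14281, mm10 chromosome 12, 85473890 to 85477274) encodes the classical serum-induced partner of JUN. It measured 19.4, 16.6 and 18.3 CPM in DMSO replicates 1 to 3, 5.23, 6.34 and 9.32 with XAV939 and 2.30, 2.89 and 3.80 with IWR-1. The 3 drug groups did not overlap, and the log2 fold change was −1.37 (SE 0.22) with XAV939 and −2.57 (SE 0.23) with IWR-1. In the siRNA set *Fos* measured 5.69, 11.8 and 4.87 CPM in siCtrl and 5.41, 9.09 and 5.12 in siTnks12. Replicate 2 was the highest of both siRNA groups, the groups overlapped, and the log2 fold change of −0.18 (SE 0.38) was 0.31 without siCtrl replicate 2 and −0.48 without siTnks12 replicate 2.

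*Fosb* (gene ID 14282, chromosome 7, 19302696 to 19310118) is a further inducible FOS gene and was sparse here, with 14 to 106 counts per library. It measured 3.23, 2.56 and 2.83 CPM with DMSO, 0.808, 0.525 and 0.988 with XAV939 and 0.698, 0.449 and 0.638 with IWR-1. Both compounds lay below DMSO in every library and overlapped each other, at log2 fold changes of −1.80 (SE 0.24) and −2.16 (SE 0.25). In siCtrl it measured 1.52, 2.14 and 1.90 CPM and in siTnks12 1.32, 1.46 and 0.946, which did not overlap, with a log2 fold change of −0.55 (SE 0.23) that did not pass.

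*Fosl1* (gene ID 14283, chromosome 19, 5447698 to 5455938) encodes FRA1, a FOS protein that accumulates in growing and migrating cells. Its span overlaps *Ccdc85b*, and since the strand setting of the counting is not given in the sources used here, reads of the overlap could be shared or dropped. It measured 142.5, 121 and 124 CPM with DMSO, 59.1, 49.7 and 71.4 with XAV939 and 16.7, 18.6 and 25.5 with IWR-1. The 3 drug groups were again fully apart, with log2 fold changes of −1.11 (SE 0.17) and −2.67 (SE 0.18), and the IWR-1 value was the lowest of the 10 genes. In siCtrl it measured 14.8, 23.1 and 19.2 CPM and in siTnks12 10.3, 7.63 and 12.6, all below control. The log2 fold change of −0.90 (SE 0.22) was the lowest of the 10 in the knockdown, and its call was lost without siCtrl replicate 1, 2 or 3 or without siTnks12 replicate 1, at values between −1.04 and −0.74.

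*Fosl2* (gene ID 14284, chromosome 5, 32136472 to 32157840) encodes FRA2, a FOS protein present in chondrocytes and bone cells. It measured 368.5, 339.8 and 453.5 CPM with DMSO, 259, 221 and 301 with XAV939 and 183, 207 and 238 with IWR-1. Both compounds lay below DMSO and overlapped each other, at log2 fold changes of −0.57 (SE 0.15) and −0.89 (SE 0.15), the smallest falls in the FOS family. The XAV939 call was lost without DMSO replicate 1 or 3 or XAV939 replicate 1 or 2, at −0.61 to −0.46. In siCtrl it measured 194, 209 and 191.5 CPM and in siTnks12 171, 143 and 170.5, with no overlap. Its log2 fold change of −0.29 (SE 0.086) was not called, and with the replicate number as a block it was −0.30 and was called, as it was with DESeq2 or without siTnks12 replicate 2.

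*Jun* (gene ID 16476, chromosome 4, 95049036 to 95052222) encodes the JUN protein that JNK phosphorylates. It measured 207, 165 and 194.5 CPM with DMSO, 61.4, 65.0 and 79.8 with XAV939 and 38.4, 42.0 and 53.1 with IWR-1. No group overlapped another, and the log2 fold changes were −1.46 (SE 0.15) and −2.08 (SE 0.15). After knockdown it measured 54.8, 48.1 and 52.5 CPM against 50.8, 63.8 and 55.7 in siCtrl, overlapping ranges with a log2 fold change of −0.13 (SE 0.097).

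*Junb* (gene ID 16477, chromosome 8, 84976909 to 84978748) encodes a JUN protein that in many settings acts against JUN. It measured 167, 150.0 and 134 CPM with DMSO, 108, 94.4 and 135 with XAV939 and 66.1, 70.5 and 76.2 with IWR-1. XAV939 replicate 3 reached into the DMSO range, so that only IWR-1 was fully apart, and the log2 fold changes were −0.42 (SE 0.14) and −1.08 (SE 0.14). The XAV939 value, not called, was −0.43 and called with the replicate block, −0.58 and called without XAV939 replicate 3, and also called without DMSO replicate 3, with no filter and with DESeq2. In siCtrl it measured 31.7, 46.6 and 30.5 CPM and in siTnks12 28.3, 48.3 and 27.8, nearly the same spread with replicate 2 highest in both (log2 fold change −0.06, SE 0.26).

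*Jund* (gene ID 16478, chromosome 8, 70697739 to 70700616) encodes the JUN protein known for steady expression in resting cells. It moved least: 199, 179 and 117 CPM with DMSO, 124, 122.5 and 153 with XAV939, and 100.1, 108 and 116 with IWR-1. DMSO replicate 3 lay well below the other two DMSO libraries. The log2 fold change was −0.31 (SE 0.18) with XAV939, which became −0.52 and was called without DMSO replicate 3, and −0.61 (SE 0.18) with IWR-1, a call lost without DMSO replicate 1 or 2 or IWR-1 replicate 1 or 2. Knockdown left it at 127, 130.1 and 90.5 CPM against 112.5, 119 and 94.0, the single member with a positive value (0.10, SE 0.16).

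*Egr1* (gene ID 13653, chromosome 18, 34861207 to 34864956) encodes the main inducible EGR factor. It measured 137, 97.1 and 136 CPM with DMSO, 47.0, 49.3 and 67.7 with XAV939 and 19.6, 23.9 and 31.6 with IWR-1. The 3 groups did not overlap, at log2 fold changes of −1.17 (SE 0.20) and −2.29 (SE 0.21). In siCtrl it measured 42.5, 62.9 and 51.9 CPM and in siTnks12 32.6, 34.0 and 37, again apart. The log2 fold change of −0.60 (SE 0.14) was called, and the call was lost without siCtrl replicate 2 (−0.45) or 3 (−0.61) or siTnks12 replicate 1 (−0.56).

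*Egr2* (gene ID 13654, chromosome 10, 67534469 to 67542188) and *Egr3* (gene ID 13655, chromosome 14, 70077317 to 70082613) are related factors with few reads here. *Egr2* measured 2.90, 1.63 and 2.55 CPM with DMSO, 1.02, 1.20 and 0.833 with XAV939 and 0.32, 0.353 and 0.493 with IWR-1, 11 to 17 counts in the last group. No group overlapped another, and the log2 fold changes were −1.17 (SE 0.26), a call lost without DMSO replicate 1 (−1.0), and −2.42 (SE 0.28). In siCtrl *Egr2* measured 0.840, 1.89 and 1.07 CPM and in siTnks12 0.833, 1.53 and 0.979 (−0.16, SE 0.36), and the sign turned to 0.21 without siCtrl replicate 2. *Egr3* differed from the other 9 in direction with XAV939: it measured 0.610, 0.407 and 0.503 CPM with DMSO, 0.701, 0.826 and 0.679 with XAV939 and 0.116, 0.161 and 0.145 with IWR-1. Every XAV939 library lay above and every IWR-1 library below DMSO, at log2 fold changes of 0.48 (SE 0.23) and −1.50 (SE 0.27). The counts were 20, 14 and 16 with DMSO, 22 to 26 per XAV939 library and 4 or 5 per IWR-1 library. The XAV939 value was not called under any setting tried. In siCtrl *Egr3* measured 0.467, 0.444 and 0.673 CPM and in siTnks12 0.486, 0.285 and 0.587, which overlapped (−0.19, SE 0.31).

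**Figure D2:**
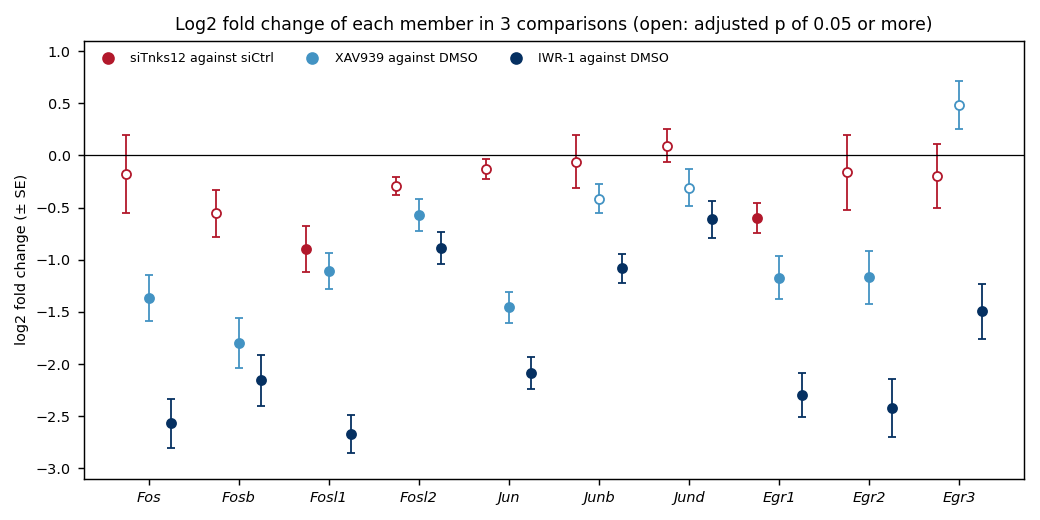
Log2 fold change (vertical axis, points with SE bars) of each gene (horizontal axis) for siTnks12 against siCtrl, XAV939 against DMSO and IWR-1 against DMSO, with open points where the adjusted p was 0.05 or more. IWR-1 lies lowest for all 10 genes, and the knockdown values lie between −0.90 and 0.10.

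Set against each other, the compounds separated 8 of the 10 genes, all with IWR-1 lower, beside 19.4% of all genes that lay wholly lower with IWR-1 and 18.2% wholly higher. IWR-1 libraries all lay below XAV939 libraries for *Fos*, *Fosl1*, *Jun*, *Junb*, *Jund*, *Egr1*, *Egr2* and *Egr3*, at log2 differences (IWR-1 minus XAV939) of −1.20 (SE 0.23), −1.57 (SE 0.18), −0.63 (SE 0.15), −0.67 (SE 0.14), −0.30 (SE 0.18), −1.12 (SE 0.21), −1.26 (SE 0.29) and −1.98 (SE 0.26). *Fosb* and *Fosl2* overlapped between the compounds, at −0.36 (SE 0.26) and −0.31 (SE 0.15). In some groups the genes also moved together. DMSO replicate 1 was the highest DMSO library for 9 genes, siCtrl replicate 2 the highest siCtrl library for 9, and IWR-1 replicate 1 the lowest IWR-1 library for 9. In siTnks12 this was not seen, where replicates 1 to 3 were highest for 2, 5 and 3 genes. The genes are therefore not independent of each other within a library.

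The makeup of each family was compared per length, as CPM per kilobase of exon. Summed over the family, the FOS genes measured 111.8 ± 8.33 CPM per kb (SD, n = 3) with DMSO, 59.5 ± 10.2 with XAV939 and 33.0 ± 5.43 with IWR-1, and 33.3 ± 4.37 in siCtrl and 24.7 ± 1.85 in siTnks12. The JUN genes measured 223.5 ± 33.7, 150.3 ± 21.9 and 109.6 ± 9.20 in the drug set and 98.7 ± 12.4 and 100.9 ± 16.2 in the siRNA set, and the EGR genes 28.3 ± 5.25, 12.7 ± 2.48 and 5.73 ± 1.38, and 12.2 ± 2.43 and 8.14 ± 0.520. The siCtrl libraries thus lay below the DMSO libraries in all 3 families. The tables were normalized separately, and transfection, culture time and table cannot be told apart in that difference.

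With DMSO, *Fosl1* was the leading FOS gene, with 57.0% ± 3.86 of the family (SD, n = 3), followed by *Fosl2* with 35.7% ± 4.05. XAV939 brought them to 49.6% ± 0.616 and 45.3% ± 0.911, and with IWR-1 the order was turned, with *Fosl2* at 65.9% ± 2.23 and *Fosl1* at 30.0% ± 1.98. The siCtrl libraries already had the latter order, with *Fosl2* at 61.9% ± 5.28 and *Fosl1* at 28.0% ± 3.20, and in siTnks12 these were 67.6% ± 2.40 and 20.1% ± 3.57. Which of the pair leads rests on exon lengths of 9680 bases for *Fosl2* and 2033 for *Fosl1*. The annotation used for counting is not given in the sources used here. In CPM not divided by length, *Fosl2* lay above *Fosl1* in every group, with means of 387.3 and 129.4 with DMSO. *Fos* itself made up 6.88% ± 0.171 with DMSO, 4.95% ± 0.983 with XAV939 and 3.83% ± 0.347 with IWR-1. *Fosb* stayed under 1.04% of the family in every library. In the JUN family *Jund* led in every group, from 43.8% ± 5.89 with DMSO to 53.2% ± 1.15 with XAV939 and 59.2% ± 0.806 with IWR-1, while *Jun* went from 26.9% ± 4.77 to 14.4% ± 0.723 and 12.7% ± 1.13. *Junb* held 29.4% ± 1.25, 32.5% ± 1.76 and 28.2% ± 0.367. *Egr1* made up 93.6% or more of the EGR family in every library.

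**Figure D3:**
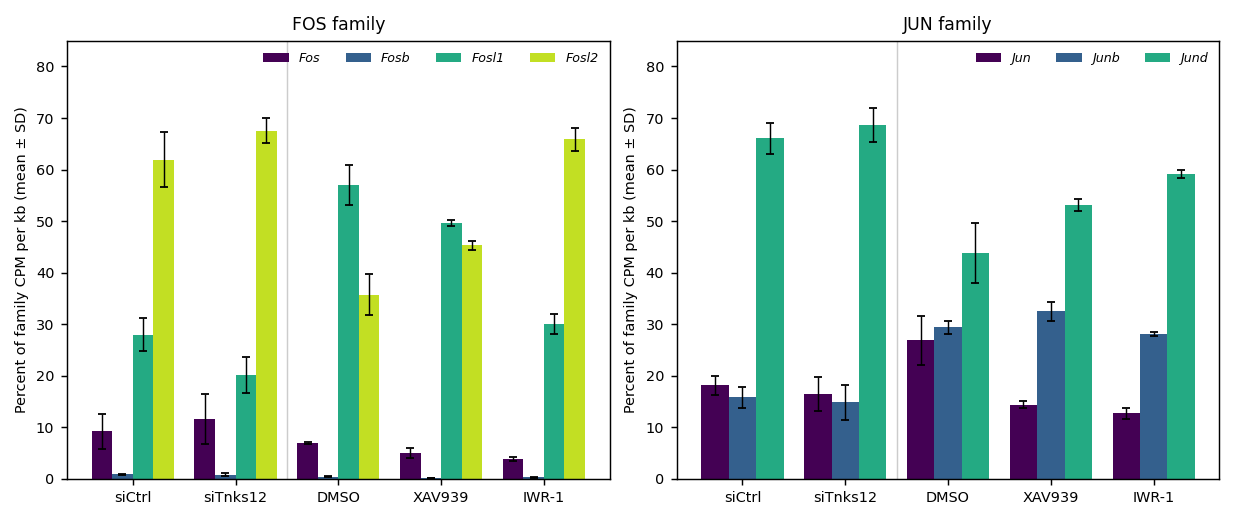
Share of each gene in its family's summed CPM per kb (vertical axis, percent, bars are means of 3 libraries with SD) in each group (horizontal axis), FOS family on the left and JUN family on the right. *Fosl1* is the tallest FOS bar with DMSO and *Fosl2* with IWR-1, and *Jund* is the tallest JUN bar in all 5 groups.

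Per kilobase, the DMSO libraries ordered the 10 genes as *Jund* (98.9 ± 25.6), *Junb* (65.3 ± 7.23), *Fosl1* (63.6 ± 5.66), *Jun* (59.2 ± 6.69), *Fosl2* (40.0 ± 6.11), *Egr1* (27.5 ± 5.04), *Fos* (7.69 ± 0.603), *Egr2* (0.694 ± 0.193), *Fosb* (0.460 ± 0.0541) and *Egr3* (0.115 ± 0.0230). The neighbours from *Jund* to *Jun* overlapped between libraries, as did *Egr2* and *Fosb*, whereas the steps from *Jun* to *Fosl2*, *Egr1*, *Fos* and *Egr2* and from *Fosb* to *Egr3* had no overlap. With IWR-1 the order was headed by *Jund* (64.8 ± 4.70), *Junb* (30.8 ± 2.19), *Fosl2* (21.6 ± 2.86), *Jun* (14.0 ± 2.40), *Fosl1* (9.96 ± 2.29) and *Egr1* (5.59 ± 1.36), and of these neighbours only *Jun* and *Fosl1* overlapped. In siTnks12 the order was headed by *Jund* (69.5 ± 13.3), *Fosl2* (16.7 ± 1.68), *Jun* (16.3 ± 1.07) and *Junb* (15.1 ± 5.08), of which the last 3 overlapped.

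The genes most like 3 of these in pattern were sought among 9988 genes with a mean of at least 5 CPM in both tables. Likeness was the root mean square difference of the log2 deviations from the control mean over the 15 libraries, whose median over all genes was 1.40 against *Fos*, 1.24 against *Egr1* and 1.41 against *Fosl1*. Nearest to *Fos* were *Csrnp1* (0.206), *Errfi1* (0.332) and *Medag* (0.338). Nearest to *Egr1* were *Ampd3* (0.218), *Lrig1* (0.236) and *C1qtnf1* (0.254), and nearest to *Fosl1* were *Epb41l3* (0.270), *Bst1* (0.301) and *Lrig1* (0.341). *Egr1* and *Fosl1* stood at 0.276 from each other and *Egr2* at 0.321 from *Fos*. *Csrnp1* measured 24.6, 19.4 and 27.3 CPM with DMSO, 7.30, 6.01 and 8.95 with XAV939 and 3.52, 4.08 and 4.70 with IWR-1, and in the siRNA set it had replicate 2 highest in both groups, as *Fos* did, at 12.4 CPM in siCtrl and 11.6 CPM in siTnks12.

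Other immediate-early genes were lower with both compounds. Of 40 listed, 38 were tested in the drug set. With XAV939 26 fell, 0 rose and 12 did not pass, beside 9.85% of all genes called lower and 7.57% higher. With IWR-1 28 fell, 1 rose and 9 did not pass, beside 20.2% and 16.2%. Medians were −0.80 and −1.08. At an unadjusted p under 0.05 edgeR had 1 gene higher with XAV939, DESeq2 called 0, and 1 was called higher without XAV939 replicate 1. With XAV939 the lowest adjusted p-values (edgeR quasi-likelihood test) were those of *Ccn1*, a matricellular target of YAP and SRF (log2 fold change −1.82, SE 0.13, adjusted p = 3.51e-05), *Hbegf*, an EGF receptor ligand (−1.82, SE 0.18, adjusted p = 0.000152), and *Btg2*, an antiproliferative gene (−1.34, SE 0.14, adjusted p = 0.000174). With IWR-1 they were those of *Btg2* (−2.0, SE 0.14, adjusted p = 4.09e-06), *Nfkbiz*, an inducible IκB-like protein (−1.69, SE 0.13, adjusted p = 5.84e-06), and *Csrnp1*, a nuclear protein (−2.52, SE 0.19, adjusted p = 6.71e-06). *Myc* rose with IWR-1 (0.58, SE 0.14, adjusted p = 0.00707), from a mean of 44.3 to 66.4 CPM.

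In the knockdown 37 of these genes were tested, with a median of −0.33. Of these 10 fell, 3 rose and 24 did not pass, beside 7.61% of all genes called lower and 10.4% higher. With the replicate block, 17 fell and 3 rose. *Cited2*, a transcriptional co-regulator, went from a mean of 173 to 78.1 CPM (log2 fold change −1.15, SE 0.13, edgeR adjusted p = 0.00436), *Ccn1* from 613 to 237 (−1.37, SE 0.20, adjusted p = 0.00898) and *Sgk1*, a serum- and glucocorticoid-induced kinase, from 152.6 to 85.5 (−0.84, SE 0.12, adjusted p = 0.00797). *Rhob*, a small GTPase, rose by 0.44 (SE 0.082, edgeR adjusted p = 0.0163), *Gem*, also a small GTPase, by 0.57 (SE 0.13, adjusted p = 0.0279) and *Trib1*, a pseudokinase, by 0.56 (SE 0.15, adjusted p = 0.0454). Each of these last 3 calls was lost without siCtrl replicate 1, 2 or 3 or siTnks12 replicate 1 (adjusted p of 0.051 to 0.148). Without siCtrl replicate 1, 2 or 3 or siTnks12 replicate 1, 5 or 6 of the listed genes fell and 0 rose.

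**Figure D4:**
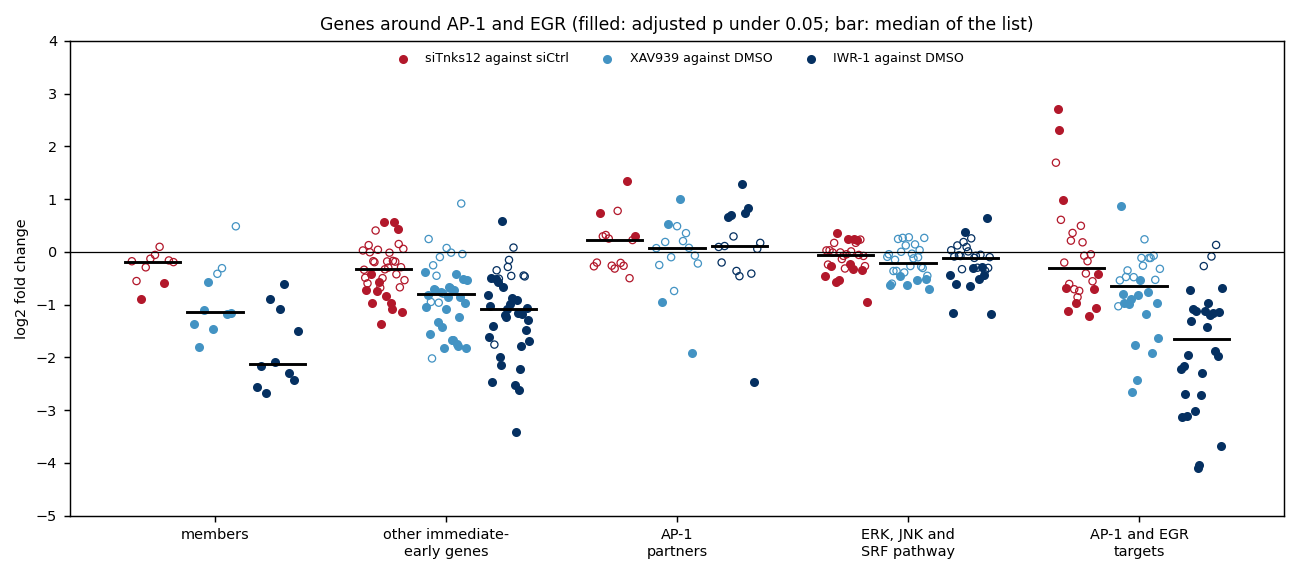
Log2 fold change (vertical axis) of single genes in 5 lists (horizontal axis) for the 3 comparisons, filled where the adjusted p was under 0.05, with a bar at the list's median. The AP-1 and EGR targets lie mostly below 0 with IWR-1 (median −1.66), while the AP-1 partners and the signalling genes lie around 0.

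The partners with which AP-1 proteins dimerise or compete did not share one direction. Of 18 ATF, BATF, JDP and MAF genes listed, 15 were tested. With XAV939 2 fell and 2 rose, beside 9.85% of all genes called lower and 7.57% higher. With IWR-1 1 fell and 5 rose, beside 20.2% and 16.2%, and in the knockdown 0 fell and 3 rose, beside 7.61% and 10.4%. In the knockdown 3 were lower and 7 higher at an unadjusted p under 0.05, DESeq2 called 1 lower and 5 higher, and the replicate block 2 lower and 8 higher. *Maff*, a small MAF protein, fell from a mean of 41.8 CPM with DMSO to 11.0 with XAV939 (log2 fold change −1.91, SE 0.19, edgeR adjusted p = 0.000168) and to 7.47 with IWR-1 (−2.47, SE 0.20, adjusted p = 9.73e-06). *Jdp2*, which represses AP-1 sites, rose with IWR-1 from 30.4 to 50.4 CPM (0.73, SE 0.12, edgeR adjusted p = 0.000592), as did *Atf5* (0.69, SE 0.13, adjusted p = 0.00173) and *Atf4*, the factor of the integrated stress response (0.66, SE 0.13, adjusted p = 0.00207). *Atf5* also rose with XAV939 (0.53, SE 0.13, edgeR adjusted p = 0.017), as did *Batf3* (1.0, SE 0.27, adjusted p = 0.0267), and both calls were lost without DMSO replicate 3, and that of *Batf3* also without DMSO replicate 1 or XAV939 replicate 1 or 2.

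*Atf3*, a stress-induced factor that dimerises with JUN proteins, measured 18.6, 23.0 and 22.2 CPM in siCtrl and 34.6, 38.7 and 32.9 in siTnks12. It rose in the knockdown (log2 fold change 0.73, SE 0.10, edgeR adjusted p = 0.00826) and fell with XAV939 (−0.95, SE 0.16, adjusted p = 0.00261), with 49.1, 44.6 and 65.3 CPM in DMSO and 23.1, 30.9 and 28.3 in XAV939. In IWR-1 it measured 58.4, 61.6 and 51.6 CPM, within the range of DMSO. *Mafk*, a small MAF protein, also rose in the knockdown (0.30, SE 0.077, edgeR adjusted p = 0.0404), a call lost without siCtrl replicate 1 (adjusted p = 0.145) or 3 (adjusted p = 0.139) or any 1 siTnks12 library, and with all libraries but no filter on low counts (adjusted p = 0.0534).

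Among the EGR co-regulators and relatives, 4 of 6 were tested (*Egr4* and *Wt1* were not). Of all genes, 20.2% were called lower with IWR-1, 9.85% with XAV939 and 7.61% in the knockdown. *Nab2*, a co-repressor that EGR proteins themselves induce, measured 76.2, 71.0 and 74.1 CPM with DMSO, 54.7, 57.0 and 65.4 with XAV939 and 39.5, 43.8 and 54.3 with IWR-1. It fell with IWR-1 (log2 fold change −0.69, SE 0.13, edgeR adjusted p = 0.00149) and in the knockdown (−0.42, SE 0.12, adjusted p = 0.0472), where the call was lost without siCtrl replicate 1, 2 or 3 or siTnks12 replicate 1. Its span overlaps *Stat6*. *Nab1* fell with IWR-1 (−0.65, SE 0.13, edgeR adjusted p = 0.00207). With XAV939 0 of the 4 passed (2 were lower at an unadjusted p under 0.05 in edgeR, DESeq2 called 0, the replicate block called 2 lower, and 1 was called lower without XAV939 replicate 3), with *Nab2* at −0.32 (SE 0.13, edgeR adjusted p = 0.101).

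For the RNA of the pathway that induces these genes, calls went both ways with IWR-1 and in the knockdown, and only lower with XAV939. Median log2 fold changes were −0.07 in the knockdown, −0.21 with XAV939 and −0.11 with IWR-1. The list held 28 genes for RAS, RAF, MEK, ERK, JNK and p38 kinases, RSK kinases, SRF and its partners and the EGF receptor. With XAV939 6 fell and 0 rose, beside 9.85% of all genes called lower and 7.57% higher. With IWR-1 9 fell and 2 rose, beside 20.2% and 16.2%, and in the knockdown 8 fell and 4 rose, beside 7.61% and 10.4%. For XAV939, 1 gene was higher at an unadjusted p under 0.05, DESeq2 called 10 lower and 0 higher, and the replicate block gave 13 lower and 2 higher. Without DMSO replicate 1, IWR-1 replicate 2 or XAV939 replicate 1, only 3 fell with XAV939. The knockdown count also rested on single libraries: without siCtrl replicate 1, 2 or 3 it was 3 lower and 0 or 1 higher, without siTnks12 replicate 1 or 3 it was 4 or 5 lower and 1 higher, and with no filter it was 6 lower and 2 higher. *Elk3*, a ternary complex factor that joins SRF, went from a mean of 99.9 CPM with DMSO to 64.4 with XAV939 (log2 fold change −0.63, SE 0.10, edgeR adjusted p = 0.00227) and 44.7 with IWR-1 (−1.16, SE 0.10, adjusted p = 1.72e-05). *Map2k1*, which encodes MEK1, fell with XAV939 (−0.63, SE 0.092, edgeR adjusted p = 0.0013) and IWR-1 (−0.65, SE 0.092, adjusted p = 0.000288). *Egfr* fell with IWR-1 (−1.17, SE 0.21, edgeR adjusted p = 0.00116) and in the knockdown (−0.95, SE 0.14, adjusted p = 0.00864).

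In the knockdown, *Hras* (log2 fold change −0.57, SE 0.069, edgeR adjusted p = 0.00581) and *Nras* (−0.54, SE 0.072, adjusted p = 0.00708) fell. The stress kinase genes *Map2k4* (0.24, SE 0.055, edgeR adjusted p = 0.0279) and *Mapk8* (0.24, SE 0.061, adjusted p = 0.0409) were higher in the knockdown, calls lost without siCtrl replicate 1, 2 or 3 or siTnks12 replicate 1 or 3, and for *Mapk8* also without siTnks12 replicate 2 and with no filter on low counts (adjusted p = 0.0648). *Mapk8*, which encodes JNK1, fell with XAV939 (−0.54, SE 0.11, edgeR adjusted p = 0.00695). With IWR-1 *Rps6ka2*, an RSK gene, rose (0.63, SE 0.14, edgeR adjusted p = 0.00511), and *Araf* rose by 0.37 (SE 0.12, adjusted p = 0.0372), a call lost without DMSO replicate 1 (adjusted p = 0.102) or 3, any 1 IWR-1 library or XAV939 replicate 1. These are RNA levels, and phosphorylation was not measured in these files.

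Genes known as AP-1 or EGR targets fell with IWR-1 in 25 of 28 cases, with 0 higher, also in DESeq2 and at an unadjusted p under 0.05, and a median log2 fold change of −1.66. With XAV939 14 fell and 1 rose, with a median of −0.66, and with the replicate block 22 fell and 1 rose. Beside these, 20.2% of all genes were called lower and 16.2% higher with IWR-1, and 9.85% and 7.57% with XAV939. *Mmp3*, which encodes stromelysin, measured 9610, 9694 and 10230 CPM with DMSO, 6089, 5719 and 8484 with XAV939 and 965, 999 and 1406 with IWR-1, and fell with IWR-1 (log2 fold change −3.13, SE 0.21, edgeR adjusted p = 3.11e-06), with −0.54 (SE 0.19, adjusted p = 0.078) for XAV939. The chemokine genes *Ccl2* (−2.72, SE 0.15, edgeR adjusted p = 1.31e-06) and *Cxcl1* (−2.29, SE 0.15, adjusted p = 3.29e-06) also fell with IWR-1. With XAV939 *Hmox1*, heme oxygenase, fell from a mean of 954 to 424 CPM (−1.17, SE 0.12, edgeR adjusted p = 0.000141), and *F3*, tissue factor, from 20.5 to 5.38 CPM (−1.92, SE 0.21, adjusted p = 0.000264).

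In the knockdown 26 targets were tested, with a median of −0.31. Of these 7 fell and 3 rose, beside 7.61% of all genes called lower and 10.4% higher. The count depended on the libraries, with 1 lower and 2 higher without siTnks12 replicate 1 and 3 or 4 lower and 2 higher without siCtrl replicate 1, 2 or 3, and the replicate block gave 11 lower and 4 higher. *Tnfrsf12a*, the TWEAK receptor, went from a mean of 111 to 67.8 CPM (log2 fold change −0.71, SE 0.11, edgeR adjusted p = 0.0111), *F3* from 14.3 to 6.08 (−1.22, SE 0.21, adjusted p = 0.0125) and *Plaur*, the urokinase receptor, from 52.8 to 24.3 (−1.12, SE 0.20, adjusted p = 0.0145). The *F3* call was lost without siCtrl replicate 1 (adjusted p = 0.0507) or siTnks12 replicate 1 (adjusted p = 0.0513), and that of *Plaur* without siTnks12 replicate 1 (adjusted p = 0.0549). The 3 that rose were all matrix metalloproteinase genes. *Mmp13*, the collagenase of hypertrophic and osteoarthritic cartilage, measured 496, 419.7 and 477.5 CPM in siCtrl and 830.1, 1015 and 911 in siTnks12 (0.98, SE 0.10, edgeR adjusted p = 0.00384).

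*Mmp10*, a second stromelysin gene, measured 1.34, 1.89 and 1.19 CPM in siCtrl and 6.18, 9.55 and 6.76 in siTnks12 (log2 fold change 2.30, SE 0.24, edgeR adjusted p = 0.00384). *Mmp9*, a gelatinase, rose from 0.311, 0.444 and 0.306 to 1.84, 5.10 and 1.04 CPM (2.70, SE 0.61, edgeR adjusted p = 0.0269), a call lost without siCtrl replicate 1, 2 or 3 or siTnks12 replicate 1. In the drug set the same 3 genes fell with IWR-1: *Mmp13* from 13840, 13170 and 12190 CPM to 3532, 3447 and 3112 (−1.96, SE 0.18, edgeR adjusted p = 1.77e-05), *Mmp10* from 4.82, 4.77 and 4.93 CPM to 0.610, 0.546 and 0.928 (−2.69, SE 0.26, adjusted p = 2.72e-05) and *Mmp9* to 3.11, 3.34 and 2.44 CPM (−2.16, SE 0.18, adjusted p = 1.11e-05). *Mmp9* rose with XAV939, from 12.1, 16.2 and 11.8 to 23.3, 27.9 and 22.0 CPM (0.86, SE 0.16, edgeR adjusted p = 0.00509). *Mmp13* in siCtrl thus stood far below its level with DMSO, as *Mmp3* did at 14.4, 34.9 and 17.1 CPM, with the 2 sets normalized apart.

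Heat-shock genes, which respond to other stresses, were examined beside the immediate-early genes. Of 12, 5 fell and 0 rose with XAV939, beside 9.85% of all genes called lower and 7.57% higher. With IWR-1 6 fell and 2 rose, beside 20.2% and 16.2%, and in the knockdown 1 fell and 0 rose, beside 7.61% and 10.4%. At an unadjusted p under 0.05 edgeR had 1 higher with XAV939 and 1 in the knockdown, DESeq2 called 0 and 1, and the replicate block 1 and 2. With XAV939 only 3 fell without DMSO replicate 1 or XAV939 replicate 1, and 1 rose without DMSO replicate 2. The inducible chaperone genes *Hspa1b* (log2 fold change −1.08, SE 0.17, edgeR adjusted p = 0.00222) and *Dnajb1* (−0.45, SE 0.093, adjusted p = 0.00787) and the co-chaperone gene *Hsph1* (−0.71, SE 0.16, adjusted p = 0.0118) fell with XAV939. With IWR-1 *Hspa1b* (−1.88, SE 0.18, edgeR adjusted p = 2.59e-05), *Dnajb1* (−0.73, SE 0.093, adjusted p = 0.000151) and *Hspa1a* (−1.65, SE 0.23, adjusted p = 0.00025) fell, whereas the mitochondrial chaperonin genes *Hspd1* (0.89, SE 0.10, adjusted p = 7.61e-05) and *Hspe1* (0.81, SE 0.17, adjusted p = 0.00402), neighbours with overlapping spans, rose. *Hspa1a* and *Hspa1b* are near-identical copies whose reads the counting may split. In the knockdown *Hsf1*, the heat-shock factor, fell (−0.39, SE 0.062, edgeR adjusted p = 0.0109), a call lost without siCtrl replicate 3 (adjusted p = 0.0509).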

How the data were processed

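The libraries were made from poly(A) RNA with the TruSeq Stranded mRNA kit and sequenced on a HiSeq instrument. Per the submitters' notes, the authors used Trimmomatic 0.32 for trimming, TopHat2 2.0.13 for alignment to mm10 and HTSeq 0.6.1p1 for counting (annotation and strand setting not given in the sources used here). The deposited values are raw read counts per Entrez gene ID, without normalization. Here each table was analysed with edgeR 4.0.16 (R 4.3.3): filterByExpr, TMM scaling, the quasi-likelihood F test over all groups of the table, a prior count of 2 for log2 fold changes and Benjamini-Hochberg adjustment over every gene that passed (13672 for siRNA, 13873 for drugs), with 0.05 as the threshold. Each SE of a log2 fold change is its absolute value divided by the square root of the test's F statistic. CPM per kb used GENCODE M21 exon lengths. Depth of 26857070 to 36615194 counts per library gives CPM steps that are coarse only for *Egr3*, *Egr2* and *Fosb*, and reads carry no molecular identifiers.

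The members, gene lists and tests were chosen with earlier results of these data known. List genes were named by rule, up to 3 each way per comparison with the smallest adjusted p, and some genes the rule covers are not reported here. *Mmp3*, *Mmp9*, *Mmp10*, *Mmp13*, *Atf3* and *Nab2* are also given in comparisons where the rule did not name them, chosen after their values were seen. The effects of a compound and the knockdown were compared in 1 edgeR model over 15 libraries (14271 genes), added after the data were seen. Alternatives were RLE and upper-quartile scaling, no filter, DESeq2 1.42.0, the replicate number as a block, and leaving out each library.

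Libraries of the same replicate number in the labels tended to deviate together. The correlations of their deviations from the group mean were 0.143 to 0.553 in 9 drug pairs and 0.424 to 0.519 in 3 siRNA pairs. For different numbers they were −0.489 to 0.318 and −0.409 to 0.0972, partly set by the former, since deviations cancel out within a group. DMSO replicate 2 departed from this, at 0.143 and 0.244 with replicate 2 of XAV939 and IWR-1 and 0.318 and 0.316 with their replicate 1. In simulated data with 200 genes above 5 CPM changed 3-fold, the test recovered 100% of them in the knockdown design (13672 genes), with 4.306% false calls, and 100% in the IWR-1 design (13873 genes), with 5.66%. Smaller changes, such as those of most members in the knockdown, were not simulated. The simulation gave every gene the same relative spread and drew the libraries independently, unlike the real ones. *Fosb*, *Egr2* and *Egr3*, with means under 5 CPM in every group, were outside the changed genes.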

Additional observations from a re-analysis of the deposited data

Results flagged for a closer look

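*Egr3* stood out because every XAV939 library lay above DMSO and every IWR-1 library below it. The XAV939 rise was not called, on 22 to 26 counts per library against 14 to 20 with DMSO. Of all genes, 16.4% lay wholly above DMSO with XAV939 and 26.4% wholly below it with IWR-1. The 2 effects differed by 1.98 on the log2 scale (IWR-1 lower), and this difference was not tested, since the gene was chosen from these comparisons.

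Other genes stood out because the knockdown and a compound moved them in opposite directions, each past an adjusted p of 0.05. For each the difference of the effects, compound minus knockdown, comes from 1 edgeR model over 15 libraries. It is a description with no test, since the 2 opposite calls chose these genes. Of the metalloproteinase genes, *Mmp10* differed for XAV939 by −3.12 (SE 0.35), and for IWR-1 *Mmp10* differed by −5.01 (SE 0.37), *Mmp9* by −4.88 (SE 0.59) and *Mmp13* by −2.95 (SE 0.22). The GTPase gene *Gem* differed by −2.33 (SE 0.29) and *Rhob* by −1.31 (SE 0.17) for XAV939. For IWR-1, *Gem* differed by −3.19 (SE 0.30) and *Rhob* by −1.62 (SE 0.17). *Atf3* differed by −1.70 (SE 0.21) with XAV939, and *Myc*, called lower in the knockdown, by 1.32 (SE 0.23) with IWR-1. *Mapk8* differed by −0.79 (SE 0.13) with XAV939. With IWR-1, *Mapk8* differed by −0.76 (SE 0.13), *Map2k4* by −0.57 (SE 0.11) and *Rps6ka2*, called lower in the knockdown, by 0.96 (SE 0.17). The knockdown calls of *Gem*, *Rhob*, *Map2k4*, *Mapk8* and *Mmp9* were each lost without siCtrl replicate 1, 2 or 3 or siTnks12 replicate 1. Only the siRNA set was transfected, and transfection, culture time, table and mode of inhibition cannot be told apart in these differences.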

How the results depend on the processing

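Among the 10 members, no call changed direction under any setting tried. Leaving out 1 library gave 0 to 3 members called in the knockdown (2 with all libraries), 5 to 8 with XAV939 (7) and 9 to 10 with IWR-1 (10). Of the other immediate-early genes it gave 5 to 14 called in the knockdown (13), where fewer samples remain in the fit, and the replicate block gave 20. With the block, *Fosl2* in the knockdown and *Junb* with XAV939 became called, and no other member's call changed. The IWR-1 value of *Egr3* was −1.86 with DESeq2 against −1.50, on 4 or 5 counts per library. Depth limits *Egr3*, *Egr2* and *Fosb*, whose ratios rest on few reads. With groups of 3, calls of members were lost on leaving out a library in all 3 comparisons.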
